A study of Homo sapiens with 6 samples.

Results

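Metallothioneins are small, cysteine-rich proteins that hold zinc and copper. Their human genes, the transcription factor gene MTF1 and the zinc exporter gene SLC30A1 were followed here in KG1a, an established human cell line from an acute myeloid leukaemia whose cells are immature and bear CD34. The set of 9 genes was given by name: MT2A, MT1X, MT1G, MT1E, MT1F, MT1H and MT1M, MTF1 and SLC30A1. Every probe of an Illumina bead array whose annotated symbol was exactly one of these names was taken, which gave 12 probes of 47322 on the array, for 9 genes of 20046 named. The treated group was KG1a cells exposed for 24 h to 2 µM of a compound with the code name 7l (3 arrays). The other group was control KG1a cells (3 arrays), and the sources used here give neither their vehicle nor their time in culture. Cells of both groups grew in RPMI medium with heat-inactivated fetal bovine serum. The labels do not say whether the 3 arrays of a group came from separate cultures, and if they did not, the p-values reflect technical spread alone.

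When zinc or cadmium ions rise in a cell, MTF1 enters the nucleus, binds metal response elements (MREs) before its target genes and raises their transcription. The metallothionein genes and SLC30A1, whose product moves zinc out of the cytosol across the plasma membrane, are its best known targets. Metallothionein protein then buffers the free metal, and MT2A and MT1X are also known to respond to glucocorticoids and to oxidative stress in many cell types.

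The metallothionein genes lie side by side on chromosome 16. In RefSeq's annotation of GRCh38.p14, MT2A lies at chr16:56608584-56609497 and MT1X at chr16:56682470-56684196, on the plus strand both. The stretch of 75613 bases from the start of MT2A to the end of MT1X holds 14 annotated metallothionein genes and pseudogenes, among them all 7 measured here. MTF1 (chr1:37809574-37859592) and SLC30A1 (chr1:211571568-211579161) lie far apart on chromosome 1, both on the minus strand.

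The 250 bases before the gene start are shown for 4 of the genes, because the MRE is what ties them to MTF1. With 7l, MT2A and MT1X were lower, SLC30A1 showed no clear change and MT1H was too dim to compare. The sequences are RefSeq's for GRCh38.p14, on the strand of the gene and 5′ to 3′, and promoter sequences of 5 of the 9 genes were used here. MT1G, MT1E, MT1F and MT1M were not among the promoters searched, so they have no MRE count. Capitals mark matches to the MRE core, searched as TGCACNC or TGCGCNC on both strands. The windows are chr16:56608334-56608583 for MT2A, chr16:56682220-56682469 for MT1X, chr16:56669564-56669813 for MT1H and chr1:211579162-211579411 for SLC30A1.
MT2A: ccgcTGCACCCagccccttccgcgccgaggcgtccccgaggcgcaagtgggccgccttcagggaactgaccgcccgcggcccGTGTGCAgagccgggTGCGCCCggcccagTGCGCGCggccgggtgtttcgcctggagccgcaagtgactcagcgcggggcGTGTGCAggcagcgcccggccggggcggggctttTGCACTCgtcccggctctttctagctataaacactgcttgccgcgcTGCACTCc
MT1X: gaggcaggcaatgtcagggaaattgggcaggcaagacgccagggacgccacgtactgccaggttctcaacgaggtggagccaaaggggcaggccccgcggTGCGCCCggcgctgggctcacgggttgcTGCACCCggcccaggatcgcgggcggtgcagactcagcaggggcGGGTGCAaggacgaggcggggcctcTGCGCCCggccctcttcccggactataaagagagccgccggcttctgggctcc
MT1H: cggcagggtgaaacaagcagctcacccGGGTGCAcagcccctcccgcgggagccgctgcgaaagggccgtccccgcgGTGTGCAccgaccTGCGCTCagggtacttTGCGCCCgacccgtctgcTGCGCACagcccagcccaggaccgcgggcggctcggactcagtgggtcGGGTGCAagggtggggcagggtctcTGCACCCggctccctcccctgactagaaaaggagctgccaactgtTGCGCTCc
SLC30A1: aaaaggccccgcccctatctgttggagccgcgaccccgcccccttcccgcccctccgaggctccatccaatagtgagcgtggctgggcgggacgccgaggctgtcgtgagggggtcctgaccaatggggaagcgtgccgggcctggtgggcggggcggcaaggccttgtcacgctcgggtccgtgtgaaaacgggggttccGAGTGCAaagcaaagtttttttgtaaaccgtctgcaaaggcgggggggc

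The MT2A window held 7 MRE cores, the MT1X window 4 and the MT1H window 8, whereas SLC30A1 held 1 and MTF1 itself 0. Of 35116 promoter windows of this length, 24.8% held at least 1 such core, 130 (0.370%) at least 4, 11 (0.0313%) at least 7 and 6 (0.0171%) at least 8. In MT2A a TATA box (TATAAA, searched on both strands) began 29 bases before the start, and in MT1X 30 bases before it. TATAAA occurred in 10.7% of all windows and was not found in the other 3. The antioxidant response element, to which NRF2 binds, was searched as TGACNNNGC on both strands. It occurred once each in MT2A, MT1X and SLC30A1, overlapped no MRE core there and was present in 10.9% of all windows. A match is a description of letters and not a site known to be bound in these cells.

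**Figure D1:**
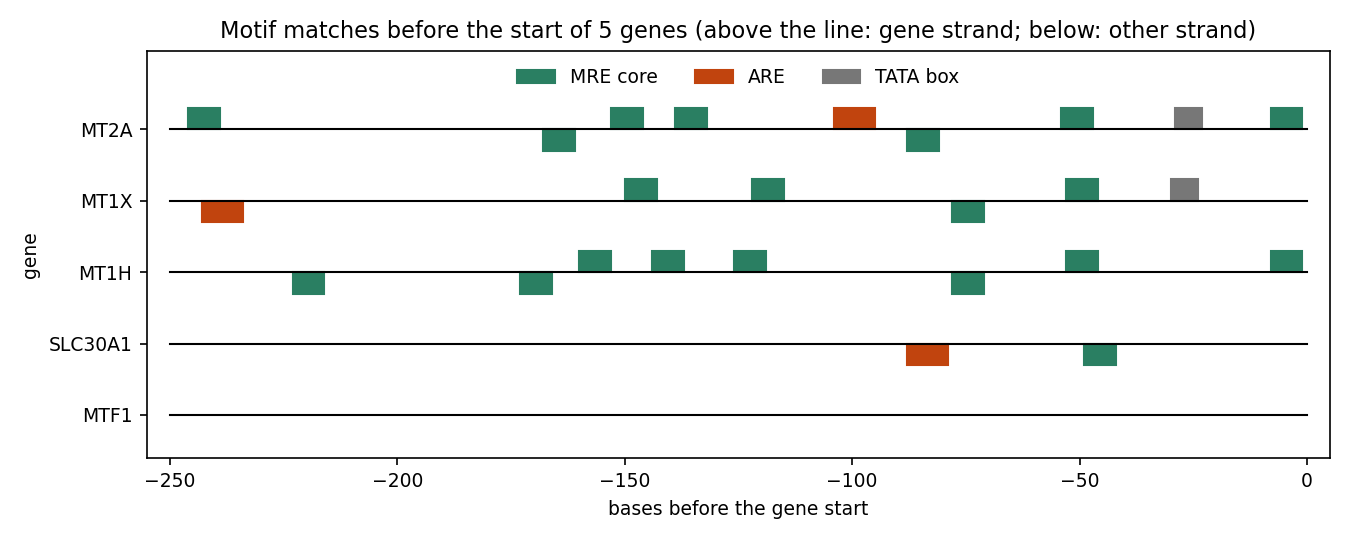
Matches to the MRE core, the antioxidant response element (ARE) and the TATA box in the 250 bases before the start of 5 genes; the x axis gives bases before the start, and boxes above a line are on the gene's strand, below it on the other. MT2A holds 7 MRE cores, MT1X 4, MT1H 8, SLC30A1 1 and MTF1 0.

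The deposited values are probe intensities on a linear scale with a floor of 1, already brought to the same distribution on all 6 arrays, so a change common to all transcripts cannot be seen. A background level of log2 2.56 (intensity 5.90) was estimated from 585 probes of olfactory receptor, taste receptor and keratin-associated protein genes, of whose means 95% lie at or under it, and each array had 22225 probes above it. CD34 averaged 11.23 ± 0.09 in 7l cells and 11.46 ± 0.02 in control cells (mean log2 intensity ± SD, n = 3 each), and of the 6 markers fixed for KG1a only FGFR1 lay under the background level on all 6 arrays by its brightest probe. Of the 5 KG1a markers tested, MYB, a progenitor transcription factor gene, was called lower (10.41 ± 0.06 in 7l cells and 10.91 ± 0.07 in control cells, log2, SD, n = 3 each; limma adjusted p = 0.0442). The other 4 did not pass. The treated arrays of CD34 also lay under its control arrays, as in 13.8% of all genes tested (change -0.23 ± 0.08, SE, limma adjusted p = 0.185). Of 12 marker genes of other cell types, 8 had a mean over the 6 arrays above the background level, by the brightest probe. Their highest group mean was log2 4.25. Of the 12, 9 were tested between the groups, and none of these passed (smallest limma adjusted p = 0.231). Genes were tested with limma if the mean of their brightest probe exceeded log2 1.76, which 6 of the 9 genes and 7 of the 12 probes did. A gene was called at a Benjamini-Hochberg adjusted p under 0.05 over all 12334 genes tested.

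MT2A and MT1X fell with 7l, by 2.79-fold and 1.96-fold. No gene of the set was called higher, and the groups overlapped for MTF1 and for each SLC30A1 probe. So 2 of the 9 genes were called lower and 0 higher, 4 did not pass, and 3 (MT1F, MT1H and MT1M) lay under the filter. Of all genes tested, 1.16% were called lower and 1.22% higher. The median log2 change of the 6 tested was -0.53, against 0.01 over all genes tested. No gene of the 6 lay near that median. MT2A, MT1X and MT1G were at -0.97 or lower, and MT1E, MTF1 and SLC30A1 ran from -0.09 to 0.02. From bulk RNA, fewer cells that carry a transcript and less of it per cell cannot be told apart.

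MT2A encodes the metallothionein found most widely in human tissues. Its probe (ILMN_1686664) read 409, 470 and 382 in 7l cells, against 1177, 1305 and 1037 in control cells (intensity, replicates 1 to 3). All 3 treated arrays were under all 3 control arrays, by a gap wider than the range of either group. On the log2 scale MT2A averaged 8.71 ± 0.15 in 7l cells and 10.19 ± 0.17 in control cells (SD, n = 3 each), and the change was -1.48 ± 0.13 (SE, with a limma adjusted p = 0.0182). Of all genes tested, 1.44% had a change as low or lower.

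MT1X, a member of the MT1 group at the far end of the gene cluster, followed the same course with a smaller change. Its probe (ILMN_1775170) read 342, 370 and 341 in 7l cells, against 716, 699 and 650 in control cells. The 2 groups did not overlap, and the spread within each was narrow. The means were 8.45 ± 0.07 in 7l cells and 9.43 ± 0.07 in control cells (log2, SD, n = 3 each), and the change was -0.97 ± 0.08 (SE, with a limma adjusted p = 0.0166). A change as low or lower was seen in 3.91% of the genes tested. Metallothionein transcripts closely resemble one another, and how much signal each probe takes from the other family members was not tested.

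The log2 ratio of the MT2A to the MT1X intensity was 0.26, 0.35 and 0.17 in 7l cells, against 0.72, 0.90 and 0.67 in control cells. It was lower on every treated array than on any control array, so MT2A had the larger change of the pair, by 0.51 on the log2 scale. The exact two-sided permutation test gave p = 0.1, the smallest that 3 arrays against 3 allow, so this difference could not pass a threshold of 0.05.

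Both calls needed the full set of 6 arrays. With any 1 array left out the change of MT2A stayed between -1.57 and -1.40 and that of MT1X between -1.01 and -0.94 (log2), but the limma adjusted p was 0.0549 to 0.100 for MT2A and 0.0549 to 0.0917 for MT1X. In those same fits the count of all genes called dropped to 0 to 18 lower and 6 to 15 higher.

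MT1G, another MT1 gene, was dim. It read 9.11, 5.31 and 1.63 in 7l cells, against 21.7, 18.0 and 21.3 in control cells. The groups did not overlap, but the treated arrays were far apart, and 2 of them lay under the background level. The change was -2.24 ± 0.65 (log2, SE), with a 95% interval of -3.88 to -0.60, and it did not pass (limma adjusted p = 0.149). With values raised to the background level the means were 2.77 in 7l cells and 4.34 in control cells, a change of -1.57 that passed (adjusted p = 0.0215). An offset of 16 added to every value makes changes of dim probes smaller, and with it the change was -0.78 and also passed (adjusted p = 0.0168). A trended and robust prior left the change as it was and gave an adjusted p of 0.00489. The call of MT1G depended on the treatment of low values and on the prior. With any single array left out, MT1G did not pass either (change -2.78 to -1.54, limma adjusted p = 0.136 to 0.308). The smallest of these adjusted p, 0.136, came without replicate 3 of the 7l cells, the dimmest array, where the change was -1.54. MT2A, MT1X and MT1G were the 3 tested genes of the set whose treated arrays all lay under all control arrays, which 13.8% of all genes tested did.

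**Figure D2:**
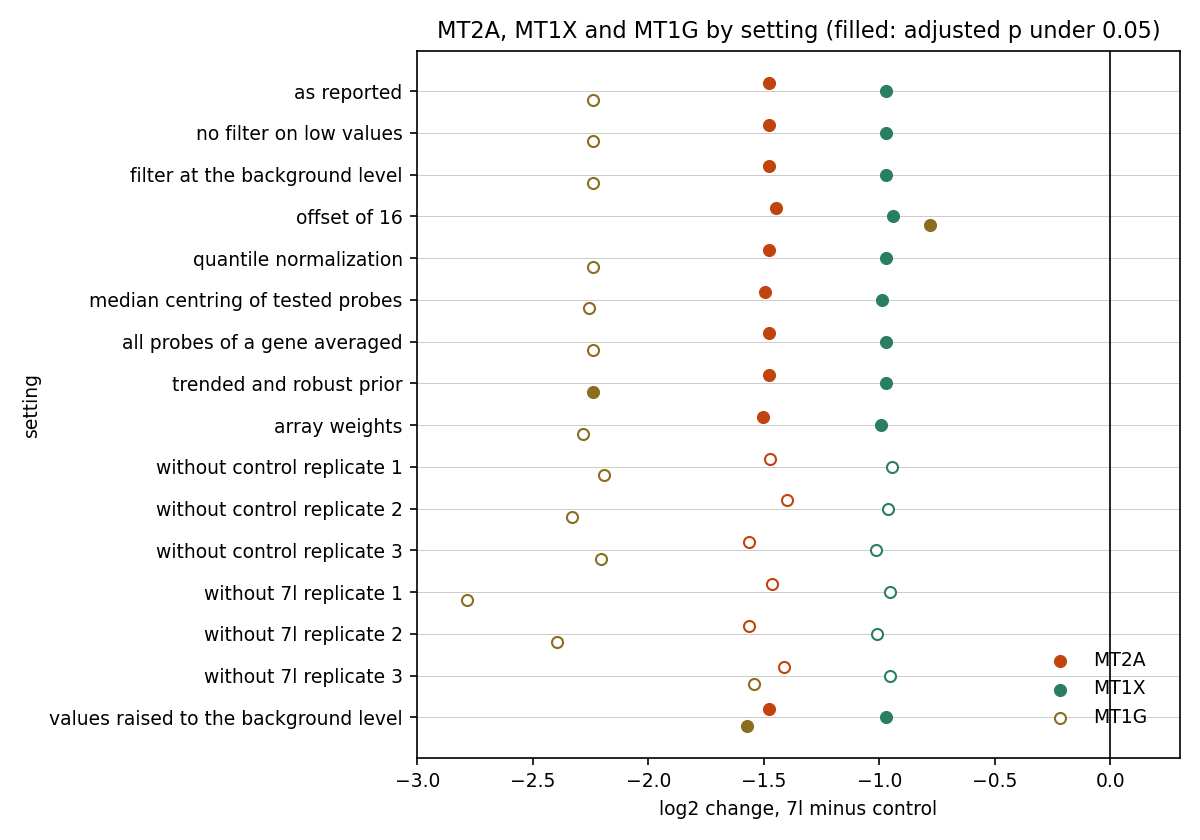
Log2 change (x axis, 7l minus control) of MT2A, MT1X and MT1G as reported and under 15 alternative settings (rows); filled points have a limma adjusted p under 0.05. MT2A stays between -1.57 and -1.40 and MT1X between -1.01 and -0.94 in these settings, but neither is filled when 1 array is left out. A further alternative, a block by replicate number, is not drawn, and neither MT2A nor MT1X was called with it.

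MT1E did not share this pattern. Its brighter probe read 32.0, 8.33 and 15.8 in 7l cells, against 19.7, 16.3 and 15.0 in control cells. The treated arrays held both the highest and the lowest value, so the groups overlapped fully. The change of -0.06 ± 0.50 (log2, SE; limma adjusted p = 0.963) came with a 95% interval of -1.34 to 1.21, wide enough to hold a change of the size seen in MT1X in either direction. The other MT1E probe sat at the floor on all 3 treated arrays and did not exceed 1.31 on the control arrays.

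The remaining MT1 genes gave no level that could be compared. MT1F read 3.49, 1 and 5.73 in 7l cells, against 3.05, 7.72 and 1 in control cells, with 1 control array above background. For MT1H, with 8 MRE cores in its window, both probes were at the floor on all treated arrays, and 1 control array of 1 probe read 10.8. MT1M was at the floor on all treated arrays and read 2.83, 1 and 1 in control cells. Of the 9 metallothionein probes, 3 were at or under the background level on all 6 arrays. Of 8 other metallothionein genes and pseudogenes listed, 5 had a named probe (MT1B, MT1L, MT1IP, MT3 and MT4), and none of them passed the filter.

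**Figure D3:**
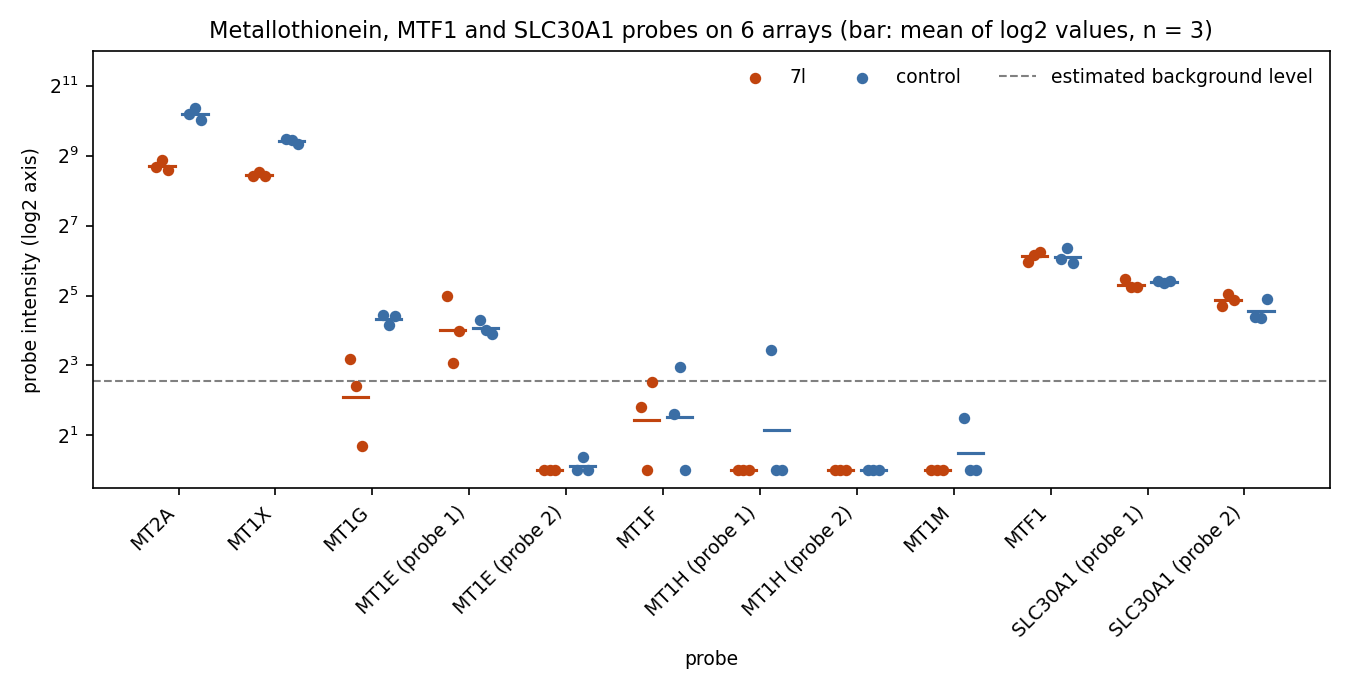
Intensity of the 12 probes on each array (log2 axis; points are arrays, bars the mean of the log2 values of 3 arrays, the dashed line the background level of 5.90). The treated arrays lie under the control arrays for MT2A, MT1X and MT1G, whereas MTF1 and SLC30A1 overlap and the probes of MT1F, MT1H and MT1M sit near the floor.

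MTF1, the metal-sensing activator of these genes, read 62.1, 72.2 and 76.0 in 7l cells, against 65.6, 81.5 and 60.5 in control cells. The groups were interleaved. Its change was 0.02 ± 0.15 (log2, SE; limma adjusted p = 0.949), with a 95% interval of -0.35 to 0.40. This is the level of the MTF1 transcript. The location and activity of the protein were not measured.

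SLC30A1, the zinc exporter, has 2 probes on the array. The brighter read 44.2, 37.6 and 37.6 in 7l cells, against 42.4, 41.0 and 42.9 in control cells. The treated arrays held the highest and the lowest values, and the change was -0.09 ± 0.09 (log2, SE; limma adjusted p = 0.658; 95% interval -0.32 to 0.15). The other probe read 26.3, 33.0 and 29.5 in 7l cells, against 20.9, 20.4 and 29.9 in control cells. This probe leaned the other way, at 0.34 ± 0.19 (log2, SE), and did not pass either in a limma fit over all 16594 probes above the filter (adjusted p = 0.405; 95% interval -0.14 to 0.81). Neither interval reached the change of MT2A or MT1X. In that fit over probes, MT2A and MT1X were again called lower (adjusted p = 0.0267 and 0.0237), while 0.705% of all probes were called lower and 0.801% higher.

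Other genes of metal transport were read from a list of zinc and copper genes. Of its 43 genes 40 had a named probe and 28 passed the filter. None of the 28 was called in either direction by limma, against 2.38% of all genes tested, and 6 had an unadjusted p under 0.05 (20.5% of all genes tested did). Their median log2 change was -0.01, with 13 positive and 15 negative. All treated arrays lay under all control arrays for 5 of the 28 (13.8% of all genes tested) and above them for 3 (15.1%). With a trended and robust prior, COX17, SLC31A1 and SLC39A1 were called higher and SCO2 lower, and with an offset of 16 COX17 was called higher. These settings called more of all 12334 genes tested as well. The prior gave 889 higher and 813 lower, and the offset 385 higher and 339 lower.

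Among the 6 tested genes for other zinc exporters of the ZnT family the median was 0.02 (log2). SLC30A3, which loads zinc into synaptic vesicles in neurons, averaged 2.89 ± 0.60 in 7l cells and 3.91 ± 0.23 in control cells (log2, SD, n = 3 each), close to background. Its change was -1.02 ± 0.33 (log2, SE, limma adjusted p = 0.185). Its treated arrays all lay under its control arrays, as in 13.8% of all genes tested. SLC30A6 measured 0.50 ± 0.28, and SLC30A7, which encodes a transporter that moves zinc into the secretory pathway, measured 0.10 ± 0.09. Neither passed (adjusted p = 0.386 and 0.598).

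The 10 tested genes for ZIP importers, which bring zinc into the cytosol, had a median of 0.04 and ran from -0.30 to 0.38. SLC39A1, an importer at the plasma membrane, read 148, 165 and 184 in 7l cells, against 127, 131 and 124 in control cells. Its treated arrays all lay above its control arrays, as in 15.1% of all genes tested. Its change of 0.38 ± 0.10 (log2, SE) did not pass (limma adjusted p = 0.134). SLC39A6 measured 0.37 ± 0.21 and SLC39A14 0.17 ± 0.10 (adjusted p = 0.403 and 0.434). SLC39A10, an importer whose gene is known to be repressed by MTF1 in zebrafish and mouse cells, measured -0.04 ± 0.11.

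The 12 copper genes had a median of -0.07. COX17, a chaperone that carries copper to cytochrome c oxidase, read 1479, 1610 and 1535 in 7l cells, against 1201, 1202 and 1068 in control cells. All treated arrays were above all control arrays, as in 15.1% of all genes tested. The change was 0.42 ± 0.08 and did not pass (log2, SE, limma adjusted p = 0.0745). The copper-exporting ATPase gene ATP7A measured -0.35 ± 0.13 and the metalloreductase gene STEAP3 -0.22 ± 0.07, and neither passed (adjusted p = 0.225 and 0.193). For ATP7A and for STEAP3 all treated arrays were under all control arrays, as in 13.8% of all genes tested.

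**Figure D4:**
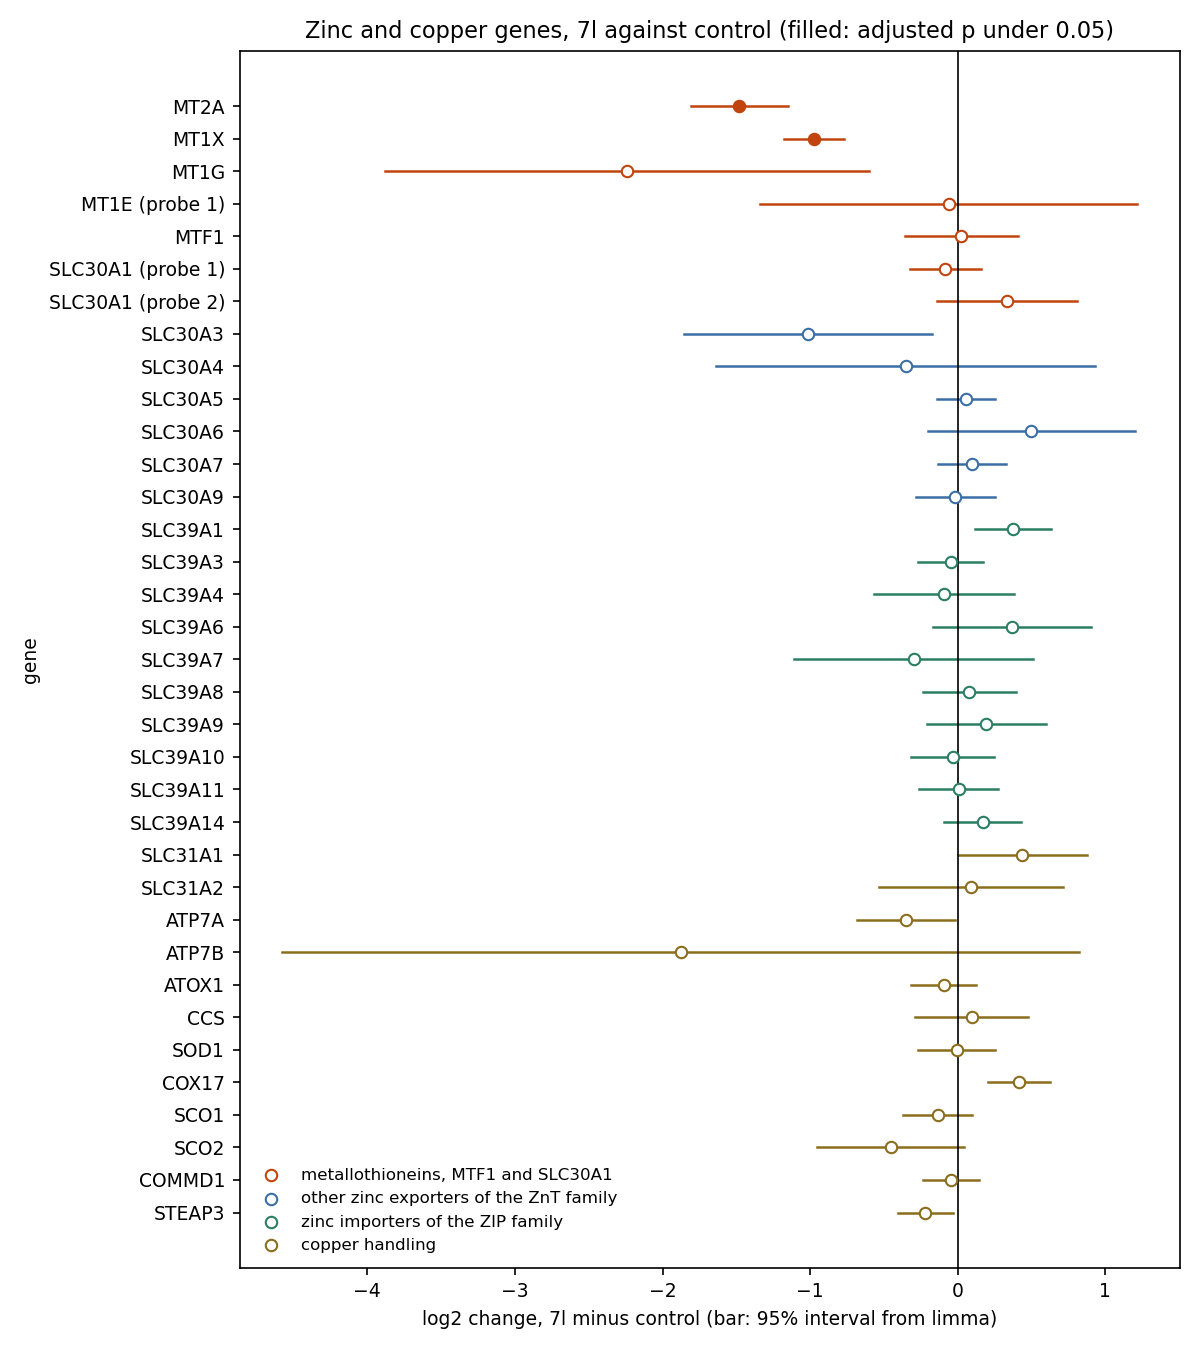
Log2 change (7l minus control) with its 95% interval for the 7 tested probes of metallothioneins, MTF1 and SLC30A1 and for the 28 tested zinc and copper genes; filled points have a limma adjusted p under 0.05. MT2A (-1.48) and MT1X (-0.97) are filled, and no other point is. The 7 probes are drawn from the fit over probes and the 28 genes from the fit over genes, each with its own adjustment of p.

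Since glucocorticoids raise MT2A in many cells, 10 genes known to be induced by them were read beside it. None of the 7 that passed the filter was called by limma, against 2.38% of all genes tested. Of the 7, 3 had an unadjusted p under 0.05 (20.5% of all genes tested did), and the median log2 change of the 7 was -0.12. DUSP1, a phosphatase gene, measured 0.39 ± 0.08 (log2, SE; adjusted p = 0.0729) and NFKBIA, the inhibitor of NF-kappaB, -0.34 ± 0.11 (adjusted p = 0.181). TSC22D3, PER1 and CRISPLD2 lay under the filter.

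The genes closest to MT2A across the 6 arrays were ranked by root mean square distance, after each gene's log2 values were centred on its control mean. The nearest 5 of the genes tested were NUDT1 (distance 0.0705), IFI44L (0.105), BTN3A2 (0.160), SPOCK2 (0.173) and BTN3A3 (0.197). NUDT1, which encodes an enzyme that destroys oxidised nucleotides, read 126, 135 and 126 in 7l cells, against 351, 389 and 335 in control cells. IFI44L is an interferon-induced gene, BTN3A2 and BTN3A3 are butyrophilin genes, and SPOCK2 encodes a secreted proteoglycan. Their changes ran from -1.31 for BTN3A2 to -1.51 for SPOCK2. MT1X was the 31st nearest gene, at a distance of 0.368. These genes were picked for their likeness over 6 arrays, so the values are a description, with no test.

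**Figure D5:**
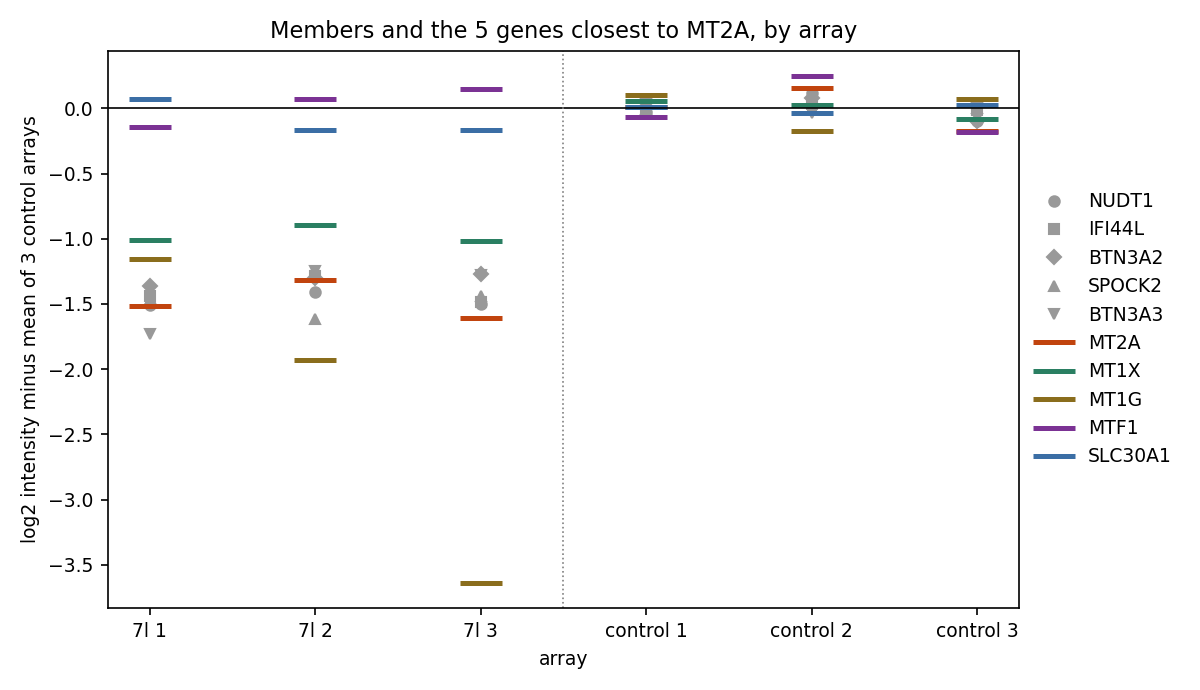
Log2 intensity on each array minus the mean of the 3 control arrays, for MT2A, MT1X, MT1G, MTF1 and SLC30A1 (brighter probe; coloured bars) and the 5 genes closest to MT2A (grey symbols). MT1X sits near -1 on the treated arrays and MT2A near -1.5, MT1G spreads widely there, and MTF1 and SLC30A1 stay near 0.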

How the data were processed

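Total RNA of KG1a cells was made into biotinylated cRNA for Illumina arrays, per the labels' protocols. The deposited intensity values of the authors are linear and run from 1 to 10984; their background correction and normalization are not stated in the labels. At 97.8% of ranks the 6 sorted arrays agreed to within 0.0001 of the value. Groups and replicate numbers came from the sample titles.

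Probes were named through a platform table (30113 with 1 symbol, 8 with several, 17201 unnamed in it), and all 9 gene numbers matched RefSeq. Values were set to at least 1, log2 transformed and fitted with R 4.3.3 and limma 3.58.1 (lmFit and eBayes, default prior, group as the only term, 4 residual and 1.24 prior degrees of freedom, two-sided). Each gene was represented by its brightest probe, and all probes were also fitted singly. The filter was the median of all probe means. The test was tested on simulated data. The number of arrays limits the precision. Genes named are the 9, the 3 smallest p of each zinc or copper list, the 2 smallest of the glucocorticoid list and the 5 nearest to MT2A; SLC39A10, the genes called only under an alternative and those given as under the filter were named after their values were seen. The genes and lists were chosen with earlier results of these data known. Motifs were searched with Python 3.11.15 and pandas 2.3.3, and figures drawn with matplotlib 3.10.9.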

Additional observations from a re-analysis of the deposited data

How the results depend on the processing

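Of 16 alternatives to the gene fit, 9 kept MT2A and MT1X called lower. With an offset of 16, a trended and robust prior or values raised to the background level (the last chosen after seeing the data) MT1G was called lower too. Leaving out any 1 array gave 0 called genes and 0 called probes of the set, lower or higher, by limma. At an unadjusted p under 0.05 it gave 3 lower and 0 higher genes of the set each time. Of all 12334 genes tested, 1986 to 2207 were under that p in these fits, in either direction. The replicate block also gave 0 called lower genes and 0 called lower probes, with MT2A and MT1X at an adjusted p of 0.197 each and 3 genes at an unadjusted p under 0.05. The replicate numbers are not known to pair arrays, and deviations of same-numbered arrays correlated at -0.0161, 0.00770 and 0.00665, so the values of the block are given only here.

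Of the 12334 genes tested, 143 were called lower and 150 higher. With no filter 205 were lower and 232 higher, of 20046 genes. With a filter at the background level 249 were lower and 270 higher, of 10852 genes. Of 12334 genes again, an offset of 16 gave 339 and 385 and a trended and robust prior 813 and 889. Values raised to the background level gave 245 and 258. Without 1 array 0 to 18 were lower and 6 to 15 higher, and with the replicate block 0 and 0 (2107 at an unadjusted p under 0.05). Of the zinc and copper list, 1 gene was higher with an offset of 16, and 3 were higher and 1 lower with the trended and robust prior. The cause was not tested.

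The uncalled changes near 0 had no stable sign. MT1E was 0.019 with an offset of 16 and -0.56 to 0.41 without 1 array, MTF1 was -0.067 to 0.15 without 1 array, and SLC30A1 was 0.13 with its probes averaged (log2).

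Signal over background limits MT1F, MT1H, MT1M and the dimmer MT1E probe, for which no change can be read.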
